A study of Mus musculus with 60 samples.

Results

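The genes described here are 10 autophagy genes of the nCounter Mouse Neuroinflammation Panel, chosen by symbol from the 770 genes with deposited values: Ulk1, Ambra1, Becn1, Atg14, Atg5, Atg7, Epg5, Sqstm1, Optn and Calcoco2. All 10 were found and tested in each comparison, with no filter on low values. The study asked whether a peripheral mammary tumor changes expression in the brain and whether the answer depends on the time of day of sampling. The mice were female Balb/C, aged 13 weeks at collection. They had been injected in the inguinal mammary glands either with 67NR cells (tumor-bearing) or with the DMEM vehicle alone (vehicle injected). The 67NR cells are a cultured, non-metastatic line that came from 1 mouse mammary tumor. Every mouse, controls included, had therefore received an injection, and brains were collected on day 25 after it, in the middle of the dark phase (mid-dark, ZT19) or of the light phase (mid-light, ZT7), where ZT is the time in hours after lights on. Hippocampus (HPC), hypothalamus (HYP) and brain stem (BS) were dissected from 20 mice, 5 in each of the 4 groups, and of 60 listed samples 56 had values, 20 of HPC, 17 of HYP and 19 of BS. The 4 others, all of vehicle injected mice, carry an outlier label and were not analysed here, which left 3 mid-dark and 4 mid-light HYP samples and 4 mid-dark BS samples of vehicle injected mice.

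Autophagy encloses part of the cytoplasm in a double membrane, the autophagosome, and delivers it to the lysosome for breakdown. The kinase ULK1 starts the process, a lipid kinase complex that holds BECN1 and ATG14 prepares the membrane, and a ubiquitin-like conjugation pathway that uses ATG7 and ATG5 attaches LC3 to it. Cargo receptors such as p62 (the product of Sqstm1) and optineurin (Optn) bind ubiquitinated cargo and LC3 together. NDP52 (Calcoco2) is listed here with the cargo receptors, and EPG5 helps the finished autophagosome meet the lysosome. In the brain, basal autophagy keeps long-lived neurons and glia free of damaged proteins and organelles, and OPTN and SQSTM1 are known as disease genes of amyotrophic lateral sclerosis.

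Of the members only Optn and Ulk1 had a limma adjusted p value under 0.05 between mid-dark and mid-light. The start-site sequences are shown for this reason, since circadian regulators act through short motifs near gene starts. RefSeq (GRCm38.p6) listed all 10 genes, and 7 of them had an entry in the promoter table, which covers 250 bases before to 50 bases after the start. The E-box CACGTG, bound by CLOCK and BMAL1, was in 3 of these 7 windows and in 7.15% of the 32851 windows of the table. All motifs were searched on both strands. The E-box is in capitals in these 30-base stretches of Atg5 (chr10:44268313-44268342, plus strand), Atg7 (chr6:114670952-114670981, plus strand) and Atg14 (chr14:47568418-47568447, minus strand):
Atg5: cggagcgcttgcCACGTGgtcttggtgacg
Atg7: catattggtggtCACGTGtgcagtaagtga
Atg14: aaaacaaaatccCACGTGactggccctgag
The windows of Optn and Ulk1 did not hold these letters. The D-box TTATGTAA (0.938% of all windows) and the ROR core motif AGGTCA (16.3%) were in none of the 7. The letters TGTTCT, the core that the glucocorticoid receptor binds (19.0% of all windows), were in 2, those of Optn and Atg5, and the GC box GGGCGG (35.7%) was in 5. Optn is shown by 30 bases around the first of its 2 GC boxes (chr2:5064137-5064166, minus strand) and 30 bases around its receptor core, read here on the other strand as AGAACA (chr2:5064268-5064297, minus strand), with the motifs in capitals:
Optn GC box: agagctacagagGGGCGGagcgttgggcgt
Optn receptor core: aatggatctgggAGAACAagagctcaaaca
Ulk1 is shown by the 211 bases from 250 to 40 bases before its start (chr5:110810121-110810331, minus strand), in which the 5 GC boxes, all on the opposite strand, are in capitals:
Ulk1: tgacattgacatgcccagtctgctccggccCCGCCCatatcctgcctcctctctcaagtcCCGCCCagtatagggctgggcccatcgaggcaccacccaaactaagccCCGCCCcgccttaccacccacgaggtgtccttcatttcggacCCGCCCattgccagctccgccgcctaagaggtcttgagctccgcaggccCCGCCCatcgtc

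Expression is given on the deposited normalized log2 scale, on which 1 unit is a doubling, and levels were compared between samples of a gene, not between genes. Depth is unknown, and the number of mice limits the precision. P values for phase and tumor within a region measure the spread between mice. Those between regions or over the 3 regions measure the spread between samples, with the mouse as a random block. "Called" means an adjusted p value under 0.05 by limma, adjusted by the Benjamini-Hochberg method across every gene tested in that comparison. The regions differed in their defining markers: the summed forebrain excitatory neuron markers Tbr1 and Slc17a7 lay between 12.69 and 13.34 in HPC, 5.61 and 9.16 in HYP, and 9.56 and 10.64 in BS. Ttr, the defining gene of choroid plexus, ranged from 5.36 to 14.71 in HPC and from 6.49 to 13.77 in BS but only from 4.33 to 5.34 in HYP, so the HPC and BS samples differed widely among themselves. The ratio of absorbance at 260 nm to that at 280 nm, a sign of RNA purity, was under 1.8 in 5 BS samples, 1 HPC sample and no HYP sample, and 3 of the 5 were of tumor-bearing mice at mid-dark.

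Region was the factor along which the autophagy genes differed most. Between HPC and BS, 7 of the 10 were called, against 76.6% of all genes of the panel. Of the 10, 2 were higher and 5 lower in HPC, against 34.9% and 41.7% of all genes. Between HPC and HYP 6 were called (71.7% of all genes), 1 higher and 5 lower in HPC (30.3% and 41.4%), and between HYP and BS 8 were called (66.5%), 5 higher and 3 lower in HYP (36.1% and 30.4%). These shares were near those of the panel, so what the members showed lies in which region each gene favoured. The median absolute difference of the 10 genes was 0.29 between HPC and BS, 0.17 between HPC and HYP and 0.16 between HYP and BS, beside 0.33, 0.26 and 0.23 over all genes tested.

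Among the cargo receptors, Optn, whose product links ubiquitinated mitochondria and bacteria to LC3, had the widest regional range. It ran from 8.54 to 8.87 in the 20 HPC samples (median 8.76), from 9.56 to 9.92 in the 17 HYP samples (median 9.79), and from 9.75 to 10.23 in the 19 BS samples (median 9.95). Every HPC sample lay below every HYP and BS sample, whereas HYP and BS overlapped. The mean was 1.20 lower in HPC than in BS (SE 0.03, 2.3-fold, limma adjusted p = 1.94e-38) and 1.01 lower than in HYP (SE 0.03, 2.02-fold, adjusted p = 3.39e-34), with the same direction in 19 of 19 and 17 of 17 mice that had both regions. HYP was lower than BS by a further 0.19 (difference -0.19, SE 0.03, adjusted p = 8.94e-08), in 15 of 16 mice.

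Oligodendrocyte markers followed a like order of regions. The 7 markers on the list, among them Mog, Mag, Cnp and Opalin, summed, had medians of 15.46 in HPC, 15.74 in HYP and 16.53 in BS, with ranges of 14.51 to 15.84, 15.43 to 16.15 and 16.45 to 16.63. All 7 were called lower in HPC than in BS and in HYP than in BS, and 6 of 7 lower in HPC than in HYP, Opalin being higher there. None was at 0. With the summed markers as a covariate, an alternative chosen after seeing the data, the Optn difference was -1.27 between HPC and BS and -0.95 between HPC and HYP, still called. The sums of BS did not overlap with those of HPC or HYP. A difference from BS is therefore estimated less precisely with this covariate. A call lost with it does not tell whether the difference depends on these markers. In such bulk samples fewer cells of a type and less RNA per cell cannot be told apart.

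Sqstm1 encodes p62, the receptor that carries ubiquitinated protein aggregates and is itself degraded with them. It was highest in HYP, between 13.55 and 13.77 (median 13.68), then BS, between 13.15 and 13.41 (median 13.29), then HPC, between 12.87 and 13.19 (median 13.01). HYP did not overlap with either of the others, and HPC and BS overlapped. The HPC level was 0.61 below HYP (difference -0.61, SE 0.02, 1.53-fold, adjusted p = 4.25e-27) and 0.28 below BS (difference -0.28, SE 0.02, adjusted p = 6.45e-15), and HYP was 0.33 above BS (SE 0.02, adjusted p = 1.65e-16). All 17, 19 and 16 mice with both regions had these directions. With the oligodendrocyte markers as a covariate HPC minus BS was -0.42, still called. Calcoco2, which encodes NDP52, had a low mean of 3.75 over all samples, and only 4.94% of panel genes had a lower mean. Its values spread widely, from 2.87 to 4.72 in HPC, 2.92 to 4.29 in HYP and 3.04 to 4.58 in BS. Its HPC mean was 0.33 below BS (difference -0.33, SE 0.12, adjusted p = 0.00982). The call was lost with the oligodendrocyte markers as a covariate (-0.38, SE 0.34, adjusted p = 0.389), where the SE was larger and the difference was not smaller. The other region differences of Calcoco2 were not called (HPC minus HYP -0.14, 95% interval -0.39 to 0.11, and HYP minus BS -0.19, interval -0.44 to 0.06).

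The genes that start autophagy fell into 3 regional orders. Ulk1, the initiating kinase, rose from HPC to HYP to BS. Its values ran from 10.08 to 10.49 in HPC (median 10.23), 10.31 to 10.63 in HYP (median 10.46) and 10.42 to 10.79 in BS (median 10.59), so every pair of regions overlapped. HPC was 0.35 below BS (difference -0.35, SE 0.03, adjusted p = 2.04e-15) in 19 of 19 mice and 0.21 below HYP (difference -0.21, SE 0.03, adjusted p = 1.84e-08) in 15 of 17, and HYP was 0.14 below BS (difference -0.14, SE 0.03, adjusted p = 0.000118) in 13 of 16.

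Becn1 and Atg14, which work in the same lipid kinase complex, were both lowest in BS. Becn1 (Beclin 1) lay between 11.86 and 12.09 in HPC (median 12.01), 11.69 and 11.93 in HYP (median 11.78) and 11.52 and 11.78 in BS (median 11.65). All HPC samples exceeded all BS samples, and HYP overlapped with both. The HPC mean was 0.35 above BS (SE 0.02, adjusted p = 1.39e-19) and 0.20 above HYP (SE 0.02, adjusted p = 1.18e-10), and HYP was 0.15 above BS (SE 0.02, adjusted p = 2.19e-07), each in all mice that had both regions. Atg14, the subunit that directs the complex to autophagosome formation sites, was 9.20 to 9.53 in HPC (median 9.33), 9.14 to 9.50 in HYP (median 9.29) and 8.76 to 9.28 in BS (median 9.03). It was 0.31 higher in HPC than in BS (SE 0.03, adjusted p = 5.69e-12) and 0.26 higher in HYP than in BS (SE 0.03, adjusted p = 6.52e-09), while HPC minus HYP was 0.05 (95% interval -0.02 to 0.12, adjusted p = 0.182). With the oligodendrocyte markers as a covariate the difference of Atg14 between HPC and BS was 0.18 (SE 0.09, adjusted p = 0.104).

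Ambra1, a BECN1 partner that also acts on ULK1, was highest in HYP (10.29 to 10.59, median 10.46), above BS (10.09 to 10.43, median 10.31) and HPC (10.04 to 10.53, median 10.24). The HPC samples spread more than those of the other regions (SD 0.13, 0.08 and 0.07 in HPC, HYP and BS). HYP was 0.16 above BS in 16 of 16 mice (SE 0.04, adjusted p = 0.000103), and HPC was 0.23 below HYP (difference -0.23, SE 0.03, adjusted p = 6.18e-08). The call between HYP and BS was lost with the oligodendrocyte markers as a covariate (0.04, SE 0.06, adjusted p = 0.69). HPC minus BS, -0.08 (SE 0.03, adjusted p = 0.0393), was lost with the RNA purity ratio as a covariate (-0.07, adjusted p = 0.0873), without samples of low RNA purity (-0.07, adjusted p = 0.111), and without the mouse as a block or any 1 of 7 mice, as given with the alternatives. With the oligodendrocyte covariate it was -0.27, still called.

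Epg5, whose product tethers autophagosomes to late endosomes and lysosomes, was also highest in HYP. It lay between 9.68 and 9.97 there (median 9.80), 9.44 and 9.94 in HPC (median 9.72) and 9.49 and 9.85 in BS (median 9.67), and all 3 regions overlapped. HYP was 0.13 above BS (SE 0.03, adjusted p = 0.000131) and HPC 0.12 below HYP (difference -0.12, SE 0.03, adjusted p = 0.000321), and HPC minus BS was 0.01 (95% interval -0.04 to 0.07). With Ttr as a covariate, an alternative also chosen after seeing the data, neither was called (HYP minus BS 0.09, adjusted p = 0.0595, and HPC minus HYP -0.07, adjusted p = 0.161). With the oligodendrocyte markers HYP minus BS was 0.02 (SE 0.05, adjusted p = 0.78) and HPC minus HYP -0.18, still called.

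The conjugation genes differed least among regions. Atg5, which joins ATG12 to form part of the ligase for LC3, was 10.19 to 10.53 in HPC, 10.24 to 10.62 in HYP and 10.30 to 10.58 in BS, and none of its 3 differences was called, the largest being HPC minus BS at -0.05 (95% interval -0.11 to 0.01). Atg7, the E1-like enzyme of the pathway, was 8.44 to 8.88 in HPC, 8.39 to 8.94 in HYP and 8.60 to 8.88 in BS. Only HYP minus BS was called, at -0.10 (SE 0.04, adjusted p = 0.0221). It was lost without any 1 of mice 8, 9, 22 and 30 (-0.06, adjusted p = 0.133, without mouse 8) and with the oligodendrocyte covariate (-0.08, SE 0.07, adjusted p = 0.397). It was also lost with the RNA purity ratio as a covariate (-0.09, adjusted p = 0.053) and without samples of low RNA purity (-0.07, adjusted p = 0.126). With Ttr as a covariate it was -0.16, still called.

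**Figure D1:**
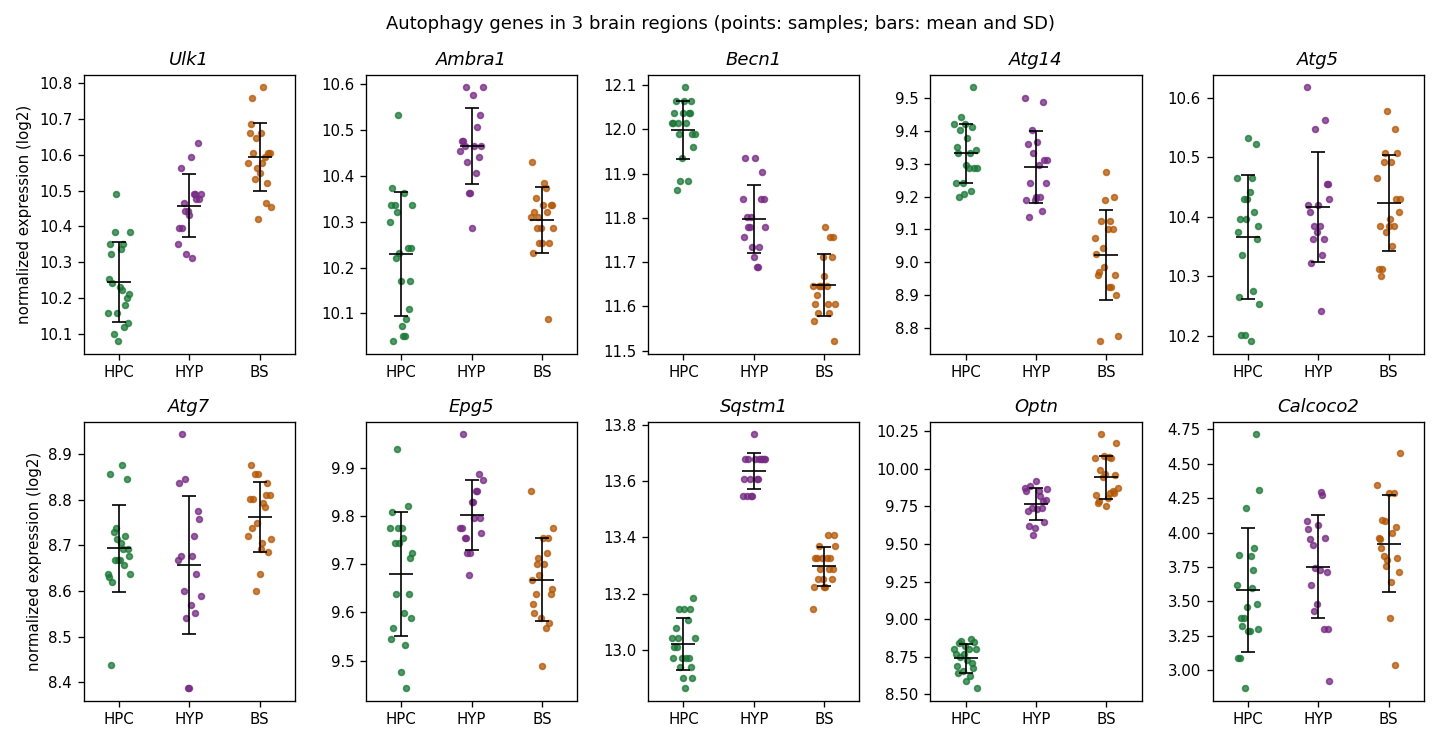
Normalized log2 expression (y axis, a separate range for each gene) of the 10 autophagy genes in HPC (20 samples), HYP (17) and BS (19), with 1 point per sample and bars for the mean and SD. Optn separates HPC from both other regions, Sqstm1 separates HYP, Becn1 falls from HPC to BS, and Atg5 and Atg7 overlap throughout.

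Of 59 other genes of autophagy and the lysosome on the list, 22 were on the panel. Between HPC and BS 19 of the 22 were called, 4 higher and 15 lower in HPC (76.6% of all genes, 34.9% and 41.7%). Between HPC and HYP 20 were called, 5 higher and 15 lower in HPC (71.7%, 30.3% and 41.4%). Between HYP and BS 15 were called, 6 higher and 9 lower in HYP (66.5%, 36.1% and 30.4%). Lamp1, a lysosomal membrane protein, was lower in HPC than in BS (-0.97, SE 0.02) and HYP (-0.71, SE 0.02), as was Pink1, the kinase that marks damaged mitochondria (-0.63 and -0.48, SE 0.02 each). Bag3, a co-chaperone of aggregate clearance, was highest in BS (HPC minus BS -1.36, SE 0.04, and HYP minus BS -1.15, SE 0.05). Atp6v1a, a subunit of the proton pump that acidifies the lysosome, was 0.51 higher in HPC than in HYP (SE 0.03).

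The time of day comparison asked whether these genes differ between the dark, active phase of the mouse and the light phase. Over the 3 regions, with tumor and vehicle groups averaged, 2 of the 10 genes were called, against 13.5% of all genes. Optn was lower and Ulk1 higher at mid-dark, where 5.45% of all genes were called lower and 8.05% higher. The median difference of the 10 was 0.02 (range -0.17 to 0.09), beside 0.01 over all genes tested.

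Optn was lower at mid-dark in each region and in both tumor groups. In HPC of vehicle injected mice it was 8.64, 8.66, 8.73, 8.68 and 8.54 at mid-dark (mice 4, 8, 12, 28 and 32) against 8.77, 8.75, 8.82, 8.87 and 8.80 at mid-light (mice 2, 6, 10, 22 and 30). In HPC of tumor-bearing mice it was 8.69, 8.86, 8.59, 8.62 and 8.71 at mid-dark (mice 3, 7, 11, 19 and 23) against 8.80, 8.84, 8.77, 8.80 and 8.85 at mid-light (mice 1, 5, 9, 13 and 29). The vehicle groups did not overlap, and in tumor-bearing mice mouse 7 lay above all mid-light values and the other 4 mid-dark mice below them. The same mouse had the lowest oligodendrocyte marker sum of all HPC samples, 14.51, where the others lay at 15.14 or above.

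In HYP of vehicle injected mice Optn was 9.62, 9.61 and 9.65 at mid-dark (mice 4, 8 and 28) against 9.85, 9.74, 9.74 and 9.86 at mid-light (mice 2, 6, 22 and 30). In HYP of tumor-bearing mice it was 9.72, 9.56, 9.73, 9.82 and 9.79 at mid-dark against 9.87, 9.89, 9.92, 9.85 and 9.80 at mid-light, in the order of mice given for HPC. The vehicle groups again did not overlap, and in tumor-bearing mice the highest mid-dark value lay above the lowest mid-light value. In BS of vehicle injected mice it was 9.79, 9.81, 9.84 and 9.87 at mid-dark (mice 4, 12, 28 and 32) against 9.83, 10.23, 9.97, 10.07 and 10.17 at mid-light (mice 2, 6, 10, 22 and 30). In BS of tumor-bearing mice it was 9.78, 9.95, 9.75, 9.84 and 9.85 at mid-dark against 10.07, 9.99, 10.09, 10.08 and 9.96 at mid-light. Here the tumor groups did not overlap, and among vehicle injected mice mouse 2 lay among the mid-dark values.

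The mid-dark minus mid-light difference of Optn was -0.17 over the 3 regions (SE 0.03, 11.1% lower, limma adjusted p = 4.89e-06). By region it was -0.14 in HPC (SE 0.04, 95% interval -0.21 to -0.06, adjusted p = 0.0371), -0.16 in HYP (SE 0.04, interval -0.25 to -0.07, adjusted p = 0.0557) and -0.22 in BS (SE 0.05, interval -0.32 to -0.11, adjusted p = 0.0139). Of all genes, 5.59% were called in HPC, 2.34% in HYP and 4.94% in BS. The mid-dark mean was lower in 6 of 6 combinations of region and tumor status, which share mice across regions. The region by phase interaction of Optn had an adjusted p of 0.967 in limma's F test. The HPC call was lost without any 1 of 13 of the 20 mice (adjusted p up to 0.0738), and the call over the 3 regions was kept without each mouse (adjusted p up to 4.71e-05).

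Within 1 tumor group the difference of Optn was not called in any region, and no other member was, although all 6 intervals of Optn lay below 0. In vehicle injected mice it was -0.15 in HPC (SE 0.05, adjusted p = 0.124), -0.18 in HYP (SE 0.06, adjusted p = 0.408) and -0.23 in BS (SE 0.07, adjusted p = 0.128), and in tumor-bearing mice -0.12 (SE 0.05, adjusted p = 0.335), -0.14 (SE 0.05, adjusted p = 0.345) and -0.20 (SE 0.07, adjusted p = 0.216). Of all genes, 2.34%, 0.26% and 1.3% were called in vehicle injected mice and 1.04%, 1.04% and 0.78% in tumor-bearing mice. The tumor by phase interaction of Optn was 0.03 in HPC (95% interval -0.12 to 0.19), 0.03 in HYP (interval -0.14 to 0.21) and 0.02 in BS (interval -0.18 to 0.23). Without mouse 2, whose BS value was the lowest of its group, 1 member was called in BS of vehicle injected mice, where 0 were called with it.

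**Figure D2:**
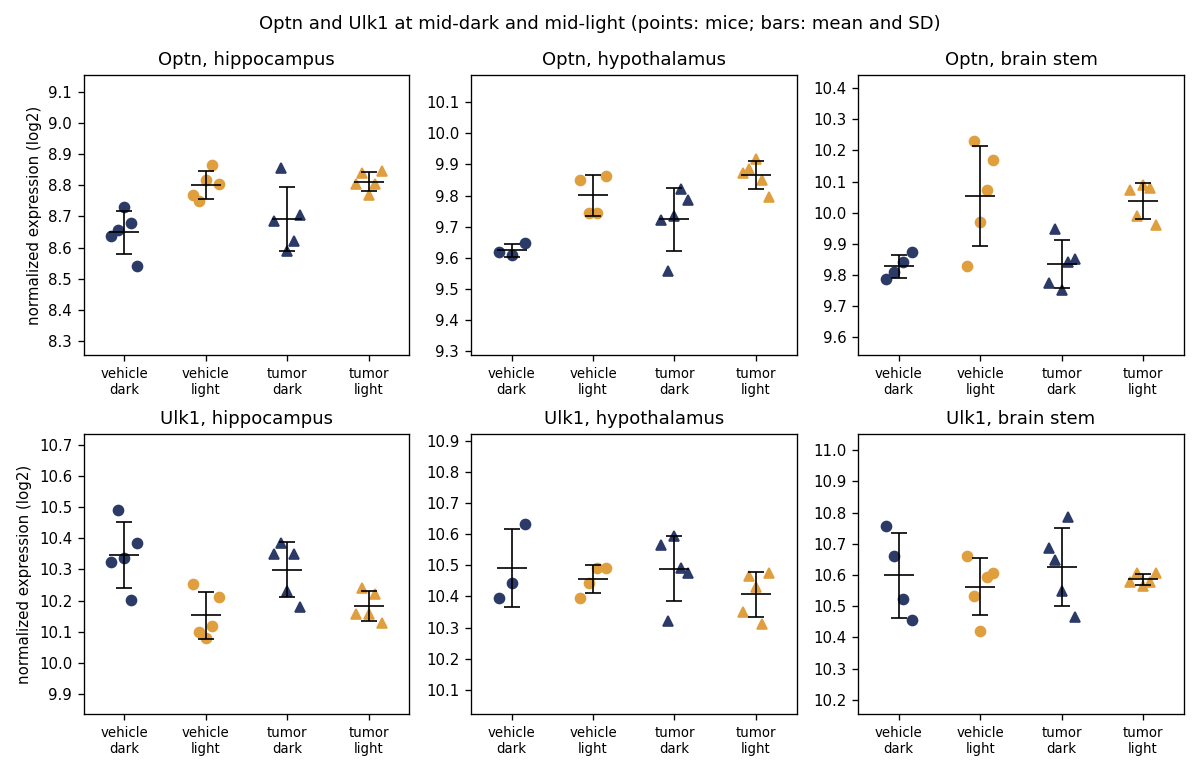
Normalized log2 expression (y axis) of Optn (top) and Ulk1 (bottom) in each region, by tumor status and phase, with 1 point per mouse (3 to 5 a group), and bars for the mean and SD. Each panel has its own range of equal height. Optn lies lower at mid-dark in all 6 pairs of groups, by 0.12 to 0.23, and the mean of Ulk1 lies higher at mid-dark in all 6.

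Several oligodendrocyte genes moved with Optn across the day. Of the 7 markers, 4 were called lower at mid-dark over the 3 regions, Opalin (-1.11, SE 0.06), Mag (-0.36, SE 0.07), Mog (-0.33, SE 0.07) and Cnp (-0.28, SE 0.05), while the differences of the other 3, Mobp and Mal among them, were between -0.08 and -0.02 and not called. The summed markers had a median of 15.21 at mid-dark against 15.61 at mid-light in HPC (ranges 14.51 to 15.62 and 15.20 to 15.84), 15.75 and 15.74 in HYP (15.43 to 16.15 and 15.49 to 16.10), and 16.51 and 16.57 in BS (16.45 to 16.58 and 16.49 to 16.63). With the sum as a covariate the Optn difference was -0.18 over the 3 regions (adjusted p = 6.43e-06), -0.16 in HPC (adjusted p = 0.0644), -0.16 in HYP (adjusted p = 0.0569) and -0.16 in BS (adjusted p = 0.247). With the covariate the difference over the 3 regions was still called, and the calls within HPC and BS were lost. The median of the sum hardly changed between phases in HYP, so there it carries little of the change of Opalin, Mag, Mog and Cnp. In BS the median was lower at mid-dark, and the shift was not small beside the range of all BS samples, 16.45 to 16.63. Whether the Optn difference depends on those 4 genes was not tested.

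Once the region means were removed, the genes outside the member list whose values followed Optn most closely over the 56 samples were Opalin (Pearson r = 0.68) and Pllp (r = 0.64), both expressed in oligodendrocytes. Opalin encodes a membrane protein of myelin, and Pllp encodes plasmolipin, another myelin protein. Both were lower at mid-dark, Opalin by more than 2-fold (difference -1.11, 2.16-fold, limma adjusted p = 3.91e-19) and Pllp with a difference of -0.78 (SE 0.05, adjusted p = 5.49e-16). Phase differences were not removed, so the lower mid-dark level that Optn, Opalin and Pllp share is part of these correlations. The samples share mice, regions and a normalization, and no test was made of these correlations.

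**Figure D3:**
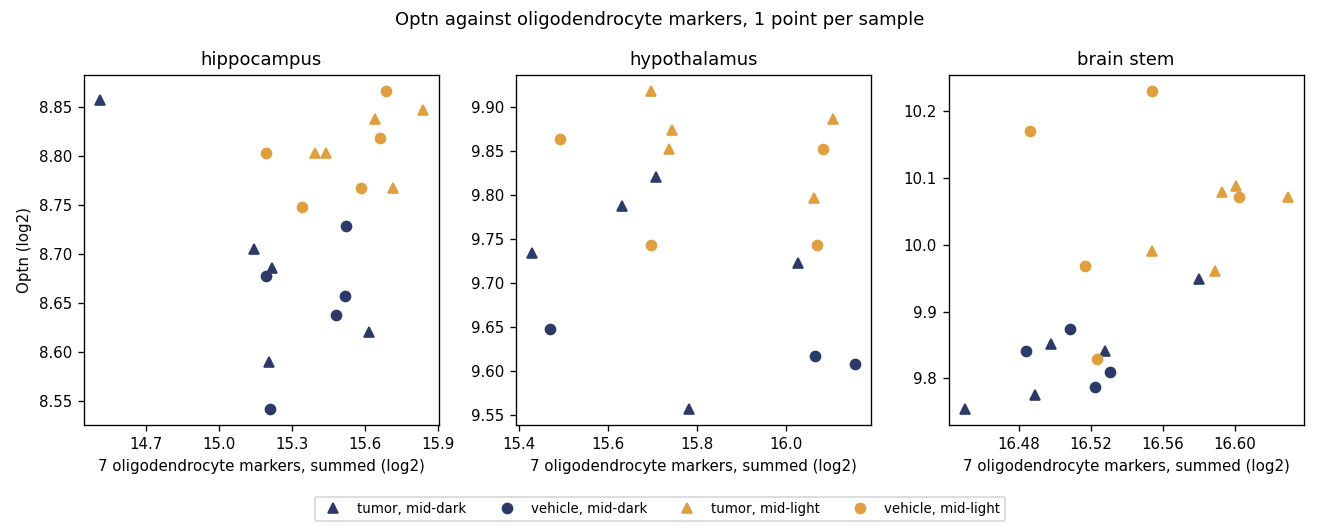
Optn (y axis, log2) against the summed level of the 7 oligodendrocyte markers (x axis, log2) in each region, with 1 point per sample, blue for mid-dark and orange for mid-light. At like marker levels the mid-light points lie above most mid-dark points, and the HPC sample of mouse 7 stands apart at 14.51.

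Ulk1 was higher at mid-dark. In HPC of vehicle injected mice it was 10.32, 10.49, 10.34, 10.20 and 10.38 at mid-dark against 10.25, 10.10, 10.08, 10.12 and 10.21 at mid-light, in the order of mice given for Optn. In HPC of tumor-bearing mice it was 10.35, 10.38, 10.23, 10.35 and 10.18 at mid-dark against 10.16, 10.24, 10.16, 10.22 and 10.13 at mid-light. In both pairs 1 or 2 mid-dark mice lay among the mid-light values. In HYP the groups overlapped more, with 10.32 to 10.63 at mid-dark against 10.31 to 10.49 at mid-light, and in BS with 10.45 to 10.79 and 10.42 to 10.66.

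The mid-dark minus mid-light difference of Ulk1 was 0.16 in HPC (SE 0.04, 95% interval 0.07 to 0.24, 11.4% higher, adjusted p = 0.0342), 0.06 in HYP (interval -0.04 to 0.16) and 0.04 in BS (interval -0.07 to 0.14). Over the 3 regions it was 0.09 (SE 0.03, adjusted p = 0.0413), higher at mid-dark in 6 of 6 combinations of region and tumor status. The region by phase interaction was not called (limma F test, adjusted p = 0.845), so the difference was not shown to be larger in HPC. The call over the 3 regions was lost without any 1 of 12 of the 20 mice (adjusted p up to 0.0901) and without samples of low RNA purity (0.09, adjusted p = 0.0582), and the HPC call without any 1 of 10 (adjusted p up to 0.0692). Both were lost with the oligodendrocyte covariate (0.07, adjusted p = 0.117, and 0.15, adjusted p = 0.157). With region means removed and phase differences left in, Ulk1 had a Pearson r of 0.72 over the 56 samples with Brd3, a reader of acetylated histones.

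No other member was called between phases. Over the 3 regions the differences ran from -0.04 for Ambra1 (95% interval -0.10 to 0.03) to 0.06 for Calcoco2 (interval -0.18 to 0.30), and for Becn1, higher at mid-dark in 6 of 6 combinations, it was 0.04 (interval -0.01 to 0.08, adjusted p = 0.304). Atg14 stood at 0.04 (interval -0.03 to 0.11), Epg5 at 0.03 (interval -0.03 to 0.09), Atg5 at 0.01 (interval -0.05 to 0.07), Atg7 at -0.01 (interval -0.08 to 0.06) and Sqstm1 at 0.01 (interval -0.04 to 0.06). For all but Calcoco2 these intervals leave out a change of more than about 0.11 in either direction. Epg5 in HPC was the nearest to a call within a region, at 0.11 (interval 0.01 to 0.21, adjusted p = 0.235). No member had a called region by phase interaction (the smallest adjusted p was 0.67, for Epg5), against 0.26% of all genes.

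**Figure D4:**
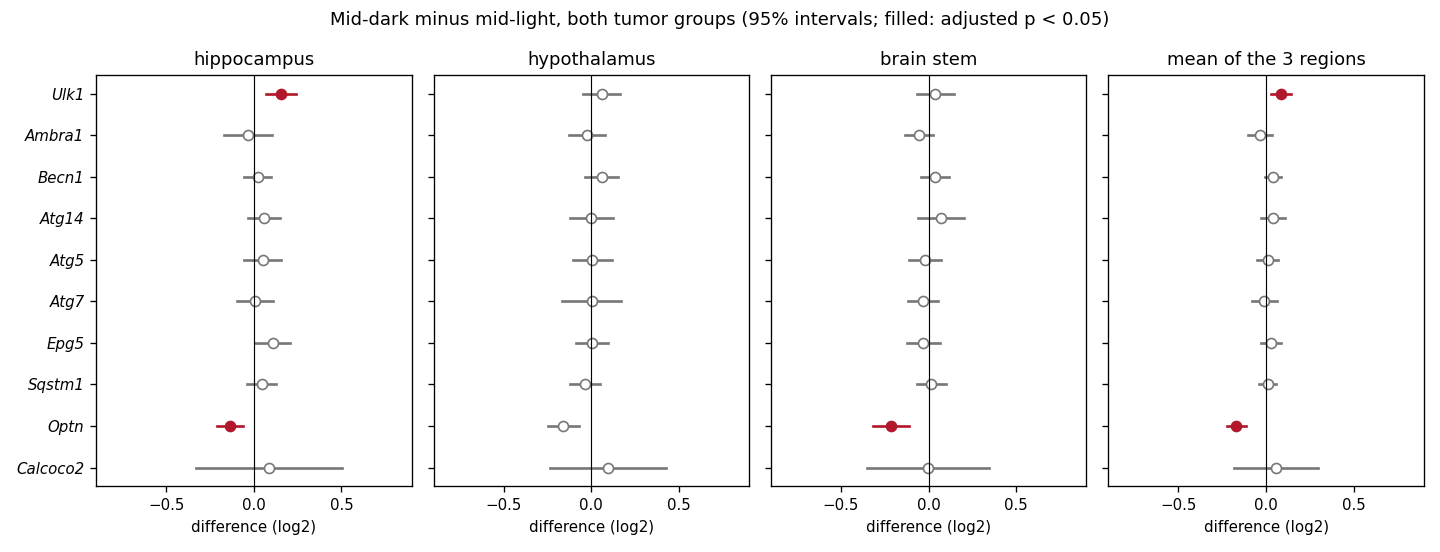
Mid-dark minus mid-light differences in log2 expression (x axis) of the 10 genes (y axis), averaged over tumor and vehicle groups, in each region and over the 3 regions, with 95% intervals. Filled points have an adjusted p value under 0.05: Ulk1 at 0.16 and Optn at -0.14 in HPC, Optn at -0.22 in BS, and both over the 3 regions.

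Of the 22 other autophagy and lysosome genes, 2 were called over the 3 regions, both higher at mid-dark (13.5% of all genes called, 8.05% higher). Bag3 was higher by 0.16 (SE 0.04, adjusted p = 0.00865) and Atg3, the E2-like enzyme of LC3 conjugation, by 0.07 (SE 0.02, adjusted p = 0.0168). Within regions only Bag3 in BS was called, at 0.23 (SE 0.05, adjusted p = 0.00635), and at 0.30 in vehicle injected mice alone (SE 0.07, adjusted p = 0.0266). The shares of all genes called there were 4.94% and 1.3%. The median difference of the 22 over the 3 regions was 0.01.

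The comparison of tumor-bearing with vehicle injected mice asked whether a tumor outside the brain goes with a change of these genes inside it. None of the 10 was called in any region, at either phase or over both. Over the 3 regions 2.34% of all genes were called, with both phases 0.52% in HPC, 0.26% in HYP and 1.04% in BS, 0.13%, 0.0% and 0.26% at mid-dark, and 0.13%, 0.0% and 0.78% when compared at mid-light. At an unadjusted p value under 0.05 there were 1 of the 10 in HPC and 1 in HYP over both phases, 1 in HPC at mid-dark, and 1 in HPC and 1 in HYP when only mid-light mice were compared, and 0 in BS and over the 3 regions. The shares of all genes under that limit were 6.37% in HPC, 7.14% in HYP and 6.5% in BS over both phases, 6.63%, 4.81% and 7.28% in the mid-dark comparison, 6.89%, 5.19% and 4.81% in the mid-light comparison, and 9.48% over the 3 regions. With ordinary p values the adjusted count was also 0 in each region. The median difference of the 10 over the 3 regions was 0.02 (range -0.03 to 0.17), beside -0.01 over all genes tested. Apart from Calcoco2 (0.17, 95% interval -0.07 to 0.41), the interval nearest to a change was that of Epg5, 0.05 (interval -0.01 to 0.11), and Optn stood at 0.04 (interval -0.02 to 0.09), Sqstm1 at 0.03 (interval -0.02 to 0.07), Becn1 at 0.00 (interval -0.05 to 0.04) and Ulk1 at 0.00 (interval -0.06 to 0.06).

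Epg5 in HPC had the smallest p value of the 10 over both phases. Its mid-dark values were 9.81, 9.94, 9.78, 9.53 and 9.82 in tumor-bearing mice against 9.57, 9.78, 9.75, 9.64 and 9.72 in vehicle injected mice. Its mid-light values were 9.78, 9.74, 9.74, 9.60 and 9.71 against 9.54, 9.64, 9.48, 9.44 and 9.59. The groups overlapped at both phases, at mid-light through mouse 13 of the tumor group and mouse 6 of the vehicle group. The difference was 0.13 (95% interval 0.03 to 0.23, adjusted p = 0.626) and 0.18 at mid-light (interval 0.03 to 0.32, adjusted p = 0.502). The region by tumor interaction of Epg5 had an adjusted p of 0.999 in limma's F test, and 0.0% of all genes were called in that test.

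Calcoco2 in HYP and Sqstm1 in HPC also came under an unadjusted p of 0.05. Calcoco2 in HYP was 3.95, 3.74, 3.73, 4.27 and 3.96 at mid-dark against 4.08, 3.91, 4.05, 4.29 and 3.30 at mid-light in tumor-bearing mice. In vehicle injected mice it was 3.62, 3.48 and 3.71 at mid-dark against 4.03, 3.43, 3.30 and 2.92 at mid-light. The mid-dark groups did not overlap and the mid-light groups did, and the difference over both phases was 0.42 (95% interval 0.09 to 0.75, adjusted p = 0.365). Calcoco2 is a gene of low level, with a mean of 3.75 over all samples and only 4.94% of panel genes below it. Sqstm1 in HPC at mid-dark was 13.01, 13.15, 13.15, 13.11 and 13.15 in tumor-bearing and 13.08, 12.94, 12.87, 12.94 and 13.04 in vehicle injected mice, which overlapped through mice 3, 4 and 32. Its difference was 0.14 at mid-dark (interval 0.02 to 0.26, adjusted p = 0.634) and its tumor by phase interaction 0.17 (interval 0.00 to 0.34, adjusted p = 0.696). No gene of the panel had an interaction of tumor and phase that was called in any region (0.0% in each).

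**Figure D5:**
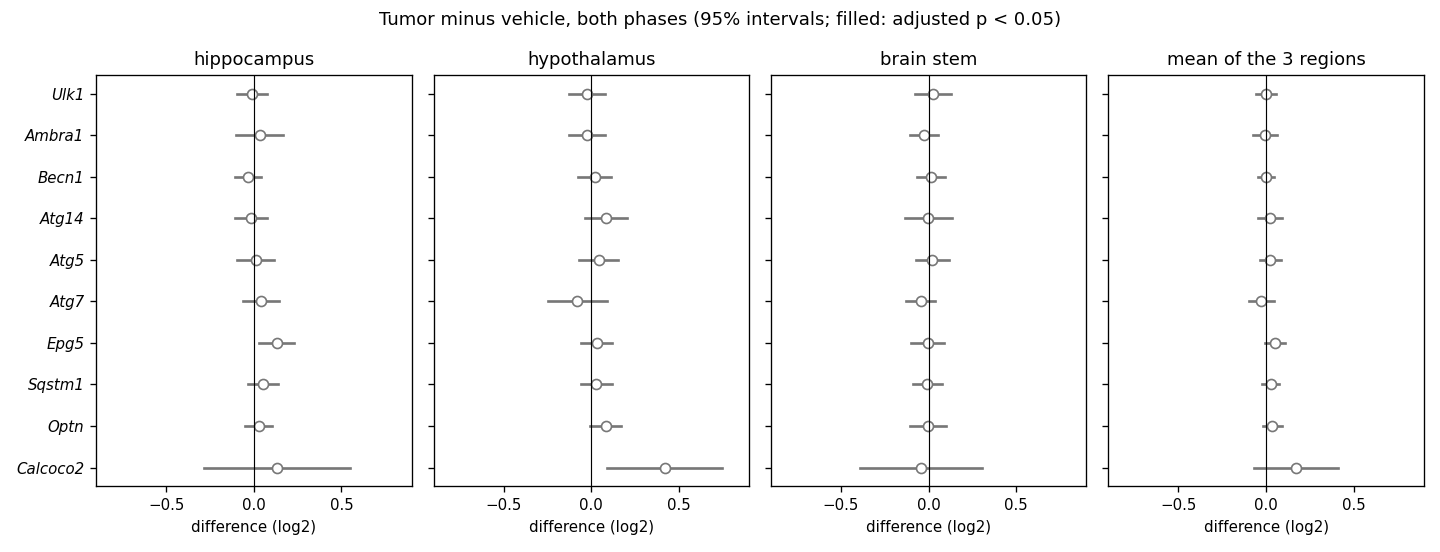
Tumor minus vehicle differences in log2 expression (x axis) of the 10 genes (y axis), averaged over both phases, in each region and over the 3 regions, with 95% intervals. No point is filled, since no adjusted p value was under 0.05, and the widest intervals are those of Calcoco2, 0.42 in HYP with an interval from 0.09 to 0.75. Calcoco2 is a gene of low level, with only 4.94% of panel genes below its mean.

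Among the other autophagy and lysosome genes only Bcl2l1, which encodes the BECN1-binding protein Bcl-xL, was called over the 3 regions. It was 0.09 higher in tumor-bearing mice (SE 0.02, adjusted p = 0.0445), where 2.34% of all genes were called. The median difference of those other genes was 0.00.

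The 10 genes did not follow one another closely. With region means removed, the 45 pairs had Pearson r from -0.47 to 0.50 with a median of 0.02 over the 56 samples. Outside the list, Atg5 was most like Ccdc127 (r = 0.84) and Vamp7 (r = 0.79), Ambra1 like Kmt2a (r = 0.78) and Prkaca (r = 0.73), and Atg14 like Hdac2 (r = 0.76) and Xiap (r = 0.75). The values were lower for Becn1 with Bnip3 (r = 0.61) and Stx18 (r = 0.58), Sqstm1 with Prkacb (r = 0.59) and Entpd2 (r = 0.50), and Epg5 with Dst (r = 0.52) and Atg9a (r = 0.52). Atg7 with Fgf13 (r = 0.50) and Csnk2a2 (r = 0.46) and Calcoco2 with Nostrin (r = 0.43) and Igf1 (r = 0.42) had the weakest. These are descriptions over samples that share mice and a normalization, with phase and tumor differences left in.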

How the data were processed

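Per the labels and the methods, the authors extracted RNA with Trizol, counted transcripts with the nCounter Mouse Neuroinflammation Panel, subtracted negative background and normalized to positive controls and codeset content in nSolver, and applied quantile normalization in Partek. The deposited values are log2 expression of 770 genes, from -0.37 to 15.36, with sample medians of 8.07 to 8.09. Quantile normalization gives all samples 1 distribution, so differences are relative to the panel.

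Samples were grouped by their labels, with the mouse as the replicate. The limma package (3.58.1, in R 4.3.3) fitted linear models with 4 group means for each region, and 12 group means over the 3 regions with the mouse as a random block (correlation 0.136), since the labels' mouse number ties regions to a mouse. Genes with 1 value throughout a region were not tested there. The members were all named; of the other autophagy genes, at most 5 called by smallest p in a comparison, and for each member the 2 most correlated non-members, of which 1 is not reported here. The members and lists were chosen with earlier results of these data known. The models were tested on simulated data. Alternatives were other p values, filters, normalizations and covariates, no block, and leaving out each mouse. Marker levels are log2 of summed linear values. Python 3.11.15 with pandas 2.3.3 and matplotlib 3.10.9 made summaries and plots.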

Additional observations from a re-analysis of the deposited data

Results flagged for a closer look

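The values of each gene in each group of 4 or 5 mice were examined, which made 110 sets that share mice. In 4 of them 1 mouse stood far from the others of its group, where about 1 in 20 would by chance. All 4 were of tumor-bearing mice. Mouse 3 stood apart in HPC at mid-dark for 2 genes, with Atg7 at 8.86 where the other 4 mice had 8.67 to 8.72, and Sqstm1 at 13.01 where the others had 13.11 to 13.15. Calcoco2 was 3.04 in BS of mouse 23 at mid-dark, against 3.95 to 4.29 in the others, and Epg5 was 9.85 in BS of mouse 1 at mid-light, against 9.64 to 9.70. What sets these samples apart was not tested.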

How the results depend on the processing

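The 28 counts of called members and 30 differences followed gene by gene were recomputed under up to 30 other settings, of which 20 left out 1 mouse each. The 30 were the called differences, Optn between phases in HYP, and the tumor differences of Epg5 and Sqstm1 in HPC and Calcoco2 in HYP. None changed its sign, but all had been picked for small p values in these data, which makes a kept sign likely from the start. With the oligodendrocyte markers as a covariate, 5 members were called between HYP and BS in place of 8, 1 between phases over the 3 regions in place of 2, 0 between phases in HPC in place of 2, and 0 in BS in place of 1. Without the samples whose 260/280 ratio was under 1.8, 1 was called between phases over the 3 regions. Between phases in HYP, 1 (Optn) was called in place of 0 with ordinary p values (adjusted p = 0.0265) and when only genes with a mean of at least 5 were tested (adjusted p = 0.0387). The cause was not tested, beyond the smaller number of genes under the filter. Shares of all genes called were not taken under the other settings or with 1 mouse left out. The changed counts therefore do not show something particular to the members.

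With 1 mouse left out, the number called between phases ran from 1 to 2 over the 3 regions, from 0 to 2 in HPC, from 0 to 1 in HPC of vehicle injected mice (1 without mouse 28) and from 0 to 1 in BS of vehicle injected mice (1 without mouse 2). Over the 3 regions Ulk1 was lost without mouse 1, 3, 6, 8, 9, 10, 12, 13, 19, 22, 28 or 29, at differences of 0.08 to 0.09. In HPC Ulk1 was lost without mouse 1, 3, 6, 7, 8, 9, 10, 22, 29 or 32 (0.14 to 0.15) and Optn without mouse 1, 2, 3, 5, 8, 10, 11, 19, 22, 23, 29, 30 or 32 (-0.12 to -0.14). Between HPC and BS Ambra1 was lost without mouse 4, 11, 12, 19, 22, 28 or 29 (adjusted p up to 0.119). Without the mouse as a replicate block, Ambra1 between HPC and BS was the only called difference lost (-0.07, adjusted p = 0.0559), and Optn over the 3 regions was -0.17 (adjusted p = 1.66e-07). Depth is unknown, so the limit for low genes such as Calcoco2 could not be set.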
